A study of Mus musculus with 40 samples.

Results

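Microglia genes were followed through every library of a mouse striatal RNA-seq series. The set held 33 gene symbols, all of them found in the deposited table of 24060 genes by exact match of the gene name. In each of 4 immunoprecipitations (IP) against the matching input, 29 of the 33 were called lower. Sall1, Cd74, Irf8 and Cd68 missed that call in at least 1 IP. Of all genes, 11.5% to 15.8% were called lower in a single IP, and the share called in all 4 was not counted. Among the 29, Ccl9, Cst7, Spi1 and Itgax were scarce in the Control IP. They passed the filter on low counts through the inputs and so had to be lower there. Against bulk striatal RNA, 12 of the 33 stood higher in all 4 groups of input lysates. Of all genes, 4.45% to 6.05% were called higher in a single group of inputs, and the share called in all 4 or in none was not counted. At the head was Cd74. Cst7 and Itgax also had large values, but both were nearly absent from bulk. They passed the filter on low counts through the inputs and so had to be higher there. Another 13 were called in none of these groups. Of them, P2ry12 overlapped with bulk. Tmem119 and Cx3cr1 lay above bulk in the Control inputs, but below the log2(FC) of 1 that a call needed. No member passed the test between SAPAP3 KO and WT mice.

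Microglia are the resident macrophages of the brain, live on signals through the receptor CSF1R, and build their identity with the transcription factors PU.1 (gene Spi1), IRF8 and SALL1. In the resting state they sense purines released by neurons through P2RY12 and its relatives, carry surface markers such as TMEM119 and CX3CR1, and make the C1q subunits that tag synapses and debris. When they respond to injury or disease they are known to gain genes such as Itgax, Cst7 and those of antigen presentation, and to lose homeostatic genes such as P2ry12 and Tmem119. None of the promoters used in the study is meant to act in microglia, so these genes report on RNA that the IP does not target.

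The series used RiboTag, in which an adeno-associated virus (AAV) injected into the dorsal striatum of adult mice carries the ribosomal protein RPL22 with an HA tag, and the tagged ribosomes are pulled down with the RNA they hold. The 40 libraries fell into 10 groups of 4. Control input and Control IP came from C57/BL6NTac mice, with both libraries from the same animal. Syn input and Syn IP came from wild-type C57/BL6NTac mice in which the neuronal hSyn1 promoter drove the tag. SAPAP3 WT input and IP came from C57/BL6J mice and SAPAP3 KO input and IP from C57/BL6J-Dlgap3 KO mice, which lack the postsynaptic scaffold SAPAP3 (gene Dlgap3), again with input and IP from the same animal. Bulk WT and bulk KO were striatal RNA lysed directly and carry the strain label C57/BL6NTac in both genotypes.

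The labels name the promoter of neither the Control nor the SAPAP3 libraries. The study's methods describe an astrocyte tag under gfaABC1D for this work, and the 10 astrocyte markers listed for the check were all called higher in the Control, SAPAP3 WT and SAPAP3 KO IPs. All 3 input groups set against bulk WT share the same 4 bulk libraries, and AAV injection, lysis and cohort, with the labelled strain for the SAPAP3 groups, differ together between inputs and bulk, so that these cannot be told apart. In RNA from whole tissue, fewer cells of a type and less RNA per cell cannot be told apart either. The 8 bulk libraries carry only 7 animal numbers, since 1 WT and 1 KO library share a number.

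Libraries held between 23438112 and 84109800 counts. Dlgap3, the targeted gene, stood at 514, 395, 376 and 399.9 CPM (counts scaled to the library total) in the SAPAP3 WT inputs and at 200, 188, 166 and 166 CPM in the SAPAP3 KO inputs, and its KO libraries were also below all WT libraries in the IPs and in bulk. Rpl22, whose counts include the tagged copy, ranged from 66.7 to 75.1 CPM in bulk, from 341.5 to 491.3 CPM in the Control inputs, from 768.1 to 1126.8 CPM in the Syn inputs and from 111.8 to 237.9 CPM in the SAPAP3 inputs. Xist, the RNA of the inactive X chromosome, lay at 188.8 CPM or more in every Syn input and at 0.0405 CPM or less in every Control input, so that sex differs with the tag between these groups. Among the SAPAP3 inputs, it reached 184.1 CPM in WT replicate 4 and 246.2 CPM in KO replicate 1 and 3.57 CPM or less in the other libraries, and in bulk WT it reached 197.2 CPM in replicate 3 and 2.36 CPM or less in the others.

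To show where the members start, the 250 bases upstream of each annotated promoter start were read from build GRCm38.p6. These RefSeq promoters hold 24 of the 33 members. Some of the starts, as in Fcgr3, Laptm5 and Ptprc, lie inside the annotated gene. A gene with several starts was counted if any of its windows held the motif. The motif searched was the PU box, the letters GAGGAA on either strand, a core bound by PU.1 and other ETS factors. It occurred in 13 of the 24 members (54.2%) and in 6986 of 27025 genes with such a promoter (25.9%). The longer form GAGGAAGT occurred in 1 member, C1qc (4.17%, against 2.79% of genes), and the ETS-IRF letters GGAANNGAA in none (against 8.01% of genes). These are matches of letters in a fixed window and say nothing about binding. Ctss, C1qb and Itgam are shown as members with a box that fell in every IP. P2ry12 and Cst7 follow because they have no box in the window and stood near 0 and near the top, respectively, in the comparison of inputs with bulk. Each sequence runs 5′ to 3′ on the gene's strand, ends at the base before the start, and has the box, or its complement TTCCTC, in capitals.
Ctss (chr3:95526536-95526785, plus strand): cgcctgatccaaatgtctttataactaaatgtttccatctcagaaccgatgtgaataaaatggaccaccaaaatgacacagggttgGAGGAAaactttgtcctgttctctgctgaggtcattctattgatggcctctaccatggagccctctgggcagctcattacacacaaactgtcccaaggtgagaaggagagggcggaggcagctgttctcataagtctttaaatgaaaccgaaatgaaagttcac
C1qb (chr4:136886201-136886450, minus strand): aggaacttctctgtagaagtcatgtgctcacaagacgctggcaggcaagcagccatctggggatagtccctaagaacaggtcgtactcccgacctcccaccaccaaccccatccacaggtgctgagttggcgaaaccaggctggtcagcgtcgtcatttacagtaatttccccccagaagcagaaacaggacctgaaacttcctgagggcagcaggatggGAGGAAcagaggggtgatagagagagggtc
Itgam (chr7:128062390-128062639, plus strand): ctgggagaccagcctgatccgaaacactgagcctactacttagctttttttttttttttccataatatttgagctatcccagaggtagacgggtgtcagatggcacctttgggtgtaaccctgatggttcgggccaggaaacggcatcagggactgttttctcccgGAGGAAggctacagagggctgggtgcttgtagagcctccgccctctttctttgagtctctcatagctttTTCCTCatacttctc
P2ry12 (chr3:59262986-59263235, minus strand): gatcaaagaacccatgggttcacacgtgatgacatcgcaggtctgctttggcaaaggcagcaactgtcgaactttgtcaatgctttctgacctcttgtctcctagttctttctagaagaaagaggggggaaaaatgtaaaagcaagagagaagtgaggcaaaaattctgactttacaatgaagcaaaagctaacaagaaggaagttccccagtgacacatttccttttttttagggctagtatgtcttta
Cst7 (chr2:150570165-150570414, plus strand): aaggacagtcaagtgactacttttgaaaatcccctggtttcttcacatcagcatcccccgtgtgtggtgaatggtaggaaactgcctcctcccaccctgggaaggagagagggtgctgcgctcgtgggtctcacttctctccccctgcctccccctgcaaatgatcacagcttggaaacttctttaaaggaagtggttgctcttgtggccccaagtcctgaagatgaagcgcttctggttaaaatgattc

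The box began at base -164 of Ctss and -30 of C1qb, counted back from the start, and Itgam held 2 boxes. The other members with a box were Aif1, C1qc, Cd53, Cd68, Fcgr3, Fcrls, Laptm5, P2ry13, Ptprc and Trem2. P2ry12 and P2ry13 lie inside Med12l on the opposite strand and Gpr34 inside Cask, also on the opposite strand, with 0 shared exon bases in each case. Cx3cr1, Siglech, Laptm5 and Csf1r share 92, 74, 73 and 7 exon bases with predicted genes, and the transcript of Itgam is matched at 99.9% identity over 73.8% of its length by the predicted gene Gm49368. The strand setting of the counting is not given in the sources used here, so counts of these members are less certain.

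In bulk WT striatum, levels per length (FPKM, the CPM per kilobase of merged exons) spanned from Ctss, the lysosomal protease cathepsin S, at 58.3 ± 6.78 FPKM (SD, n = 4) to Itgax, the integrin CD11c, at 0.0623 ± 0.0321 FPKM. C1qa, the A chain of C1q, came second at 50.6 ± 5.62 FPKM, with libraries that overlapped those of Ctss. C1qb at 33.3 ± 3.92 FPKM lay below every C1qa library and overlapped with C1qc, and Csf1r followed at 27.8 ± 2.18 FPKM. Tyrobp, the signalling adaptor also known as DAP12, reached 18.4 ± 1.36 FPKM and P2ry12 17.3 ± 2.09 FPKM. At the low end stood Cd74, the invariant chain of MHC class II, at 1.23 ± 0.38 FPKM, Ptprc, which encodes CD45, at 0.934 FPKM, and Cst7, the protease inhibitor cystatin F, at 0.121 FPKM. Neighbours in this order mostly overlapped, and a gap between all libraries of a neighbouring pair occurred 7 times.

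The first question was how much of each member's RNA remained in the IPs. Relative to its input, 31 of 33 members were called lower in the Control IP (adjusted p under 0.05 and log2(FC) below -1 in edgeR's quasi-likelihood test), against 13.5% of all genes tested. The Syn IP had 31 of 33 (15.8% of all genes), the SAPAP3 WT IP 30 of 33 (12.1%) and the SAPAP3 KO IP 30 of 33 (11.5%), and none was called higher in any IP, where 13.4%, 0.42%, 10.9% and 12.3% of all genes were. Median log2(FC) values of the members were -5.30, -4.38, -4.18 and -3.37 in that order, where the medians of all genes lay between -0.03 and 0.00. The libraries of input and IP did not overlap for 32, 32, 30 and 30 members, and this was not counted over all genes. Of all genes, 81.5%, 73.5%, 70.2% and 74.1% had an unadjusted p under 0.05 in edgeR.

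**Figure D1:**
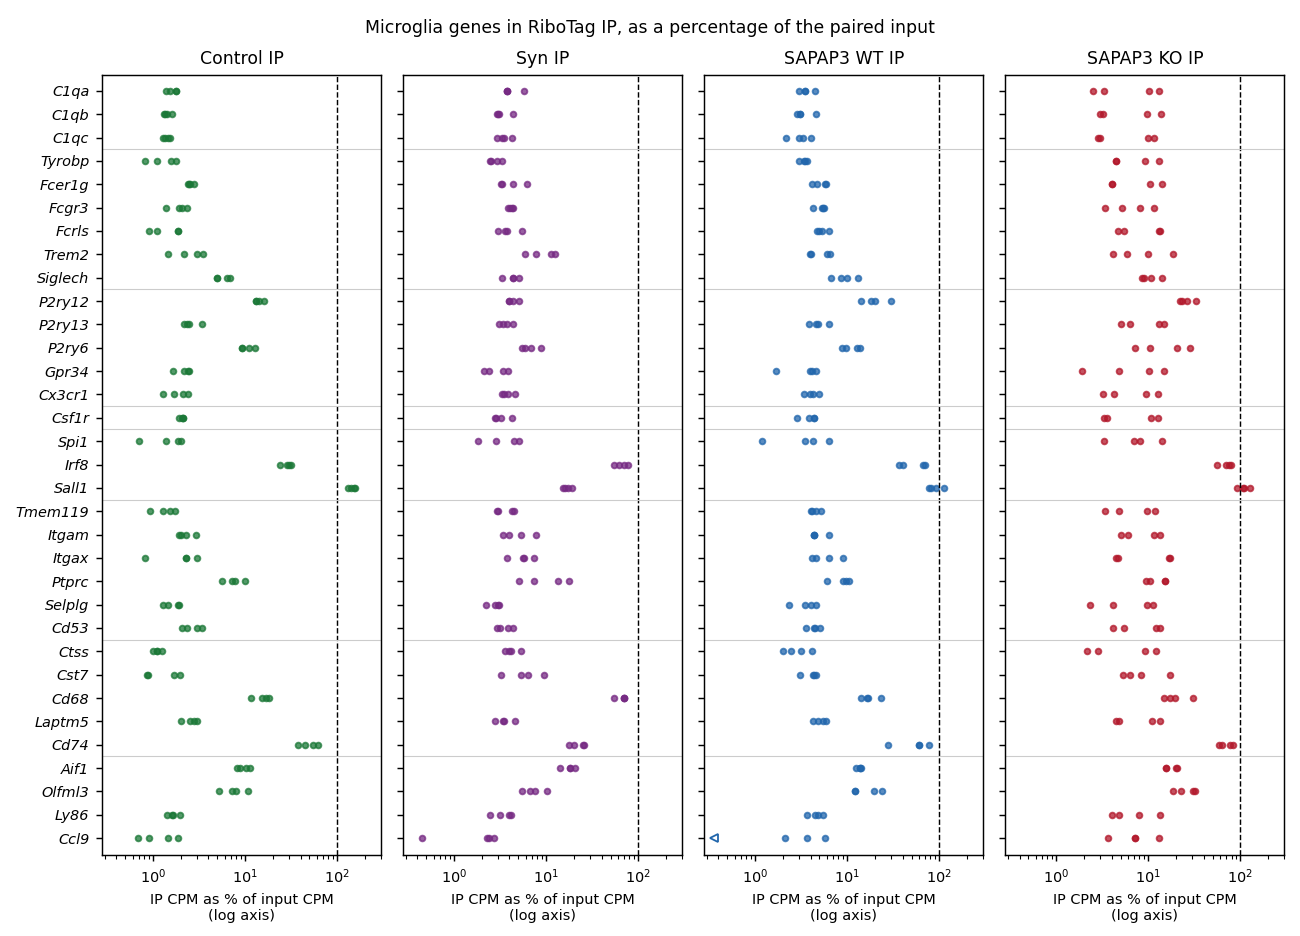
Level of each of the 33 members in the IP as a percent of the input with the same replicate number, on a log axis, with 1 panel for each of the 4 cohorts and genes grouped by role. Each point is 1 of 4 pairs, the dashed line marks 100% and the open triangle a pair with 0 counts in the IP. Most members sit far to the left of the line, while Sall1 lies around it except in the Syn IP and Cd74 and Irf8 lie close to it in several panels.

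The complement C1q genes fell together. C1qa measured 133, 121, 129.8 and 149.7 CPM in the Control inputs and 2.37, 1.69, 1.98 and 2.63 CPM in the Control IPs. Every IP library was far below every input library, and the log2(FC) was -5.72 (SE 0.106, adjusted p = 3.7e-12). C1qb and C1qc, the other chains of the molecule, had log2(FC) values of -5.91 and -5.93. Across the 4 IPs, the C1q genes ranged from -5.93 in the Control IP to -3.57 in the SAPAP3 KO IP. As a percent of the paired input, C1qa was at 1.78, 1.4, 1.53 and 1.76% in the Control pairs, 3.74, 3.78, 3.75 and 5.71% in the Syn pairs, 3.52, 4.43, 3.03 and 3.49% in the SAPAP3 WT pairs and 13.2, 2.53, 3.32 and 10.1% in the SAPAP3 KO pairs. SAPAP3 KO pairs 1 and 4 lay above every other pair of any cohort for this gene.

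All 6 receptor adaptors, Fc receptors and related receptors were called lower in each IP. Tyrobp stood at 24.7, 23.9, 28.9 and 32.7 CPM in Control inputs and 0.441, 0.195, 0.455 and 0.363 CPM in Control IPs, without overlap (log2(FC) -6.00, SE 0.177, adjusted p = 8.1e-11). Fcer1g, the common Fc gamma chain, Fcgr3, a low-affinity IgG receptor, and Trem2, the lipid-sensing receptor that signals through TYROBP, had log2(FC) values of -5.06, -5.47 and -5.06 there. Fcrls, an Fc receptor-like gene used as a microglia marker in mouse, was at -5.85, and Siglech, a sialic acid-binding lectin, fell least in this role, at -3.87.

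The G protein-coupled receptors were called lower in all 4 IPs as well, with the purine receptor P2ry12 the least depleted of them in the Control IP. P2ry12 had 40.7, 39.7, 48 and 39.3 CPM in Control inputs and 5.4, 5.57, 6.39 and 6.38 CPM in Control IPs, and 46.5, 51.4, 46.1 and 46.4 CPM in Syn inputs and 2.03, 2.04, 1.82 and 2.34 CPM in Syn IPs. The inputs of both cohorts overlapped, and every Syn IP was below every Control IP. P2ry12 had a log2(FC) of -2.60 (SE 0.0869, adjusted p = 2.2e-10) in Control and -4.33 (SE 0.0747, adjusted p = 7.7e-10) in Syn. In the SAPAP3 IPs the levels were 7.69, 11.3, 7.9 and 9.14 CPM in WT and 12.7, 8.54, 8.84 and 11 CPM in KO (log2(FC) -2.17 and -1.73). P2ry13 and P2ry6, receptors for ADP and UDP, were at -5.04 and -3.00 in the Control IP, Gpr34, a lysophosphatidylserine receptor, at -5.30, and Cx3cr1, the receptor for neuronal fractalkine, at -5.51.

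Csf1r, the receptor for CSF1 and IL-34, fell from 167, 147, 163 and 172 CPM to 3.17, 3.08, 3.49 and 3.54 CPM between Control input and IP (log2(FC) -5.39, SE 0.0668, adjusted p = 1.5e-12). Its log2(FC) was -4.74 in the Syn IP, -4.54 in the SAPAP3 WT IP and -3.57 in the SAPAP3 KO IP. The IP libraries of all cohorts stayed below all their inputs.

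The transcription factors split. Spi1 was called lower in each IP, with log2(FC) values of -5.77, -4.66, -4.38 and -3.39 in the Control, Syn, SAPAP3 WT and SAPAP3 KO IPs. Irf8 had 19.1, 13.9, 20 and 26 CPM in Control inputs and 5.99, 3.3, 6.01 and 7.47 CPM in Control IPs (log2(FC) -1.57, SE 0.226, adjusted p = 5.5e-05). These libraries did not overlap, but in the other 3 cohorts the Irf8 libraries did, and without pairing the log2(FC) was -0.41 (adjusted p = 0.28) for Syn, -0.67 (adjusted p = 0.24) for SAPAP3 WT and -0.27 (adjusted p = 0.44) for SAPAP3 KO. Within pairs, Irf8 was nevertheless below its input in all 16, at 62.2, 54.4, 69.7 and 76.9% in Syn, 36.4, 70.4, 40.4 and 67.2% in SAPAP3 WT and 79.4, 69.3, 55.9 and 75.4% in SAPAP3 KO. With the replicate number as a block in edgeR, Irf8 had -0.41 (adjusted p = 5.7e-05), -0.76 (adjusted p = 0.0021) and -0.31 (adjusted p = 0.0051) in these cohorts, below 0 in each but short of the fold limit. The Syn IPs held 23, 14.5, 9.39 and 23.6 CPM and the Syn inputs 36.9, 26.7, 13.5 and 30.6 CPM.

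Sall1, a zinc finger factor of microglial identity, was the member with the most uneven behaviour. It measured 18.1, 18.3, 20.6 and 20.8 CPM in Control inputs and 28.2, 27.5, 29.2 and 27.2 CPM in Control IPs, and 24, 22.9, 19.9 and 22.1 CPM in Syn inputs and 3.89, 4.37, 3.03 and 3.79 CPM in Syn IPs. All Control IPs were above all Control inputs, and all Syn IPs below all Syn inputs. The log2(FC) of 0.75 in Control (SE 0.0578, adjusted p = 2.7e-07) did not reach the fold limit, whereas that of -2.36 in Syn (SE 0.101, adjusted p = 7e-08) did. In SAPAP3 WT it was at 33.7, 30, 25.4 and 32.1 CPM in inputs and 26.2, 24.1, 28.2 and 29.9 CPM in IPs (log2(FC) 0.01, SE 0.101, adjusted p = 0.93), and in SAPAP3 KO at 29.2, 39.2, 24.8 and 25.1 and 31.3, 35.6, 31.6 and 27.2 CPM (log2(FC) 0.29, SE 0.143, adjusted p = 0.086). The libraries overlapped in both SAPAP3 cohorts, and with the replicate block the Sall1 values were 0.01 (adjusted p = 0.91) and 0.31 (adjusted p = 0.0049). Sall1 therefore went against the label of a microglia gene in the Control and SAPAP3 IPs. Scaled on ribosomal protein genes, its log2(FC) in the Control IP was 1.43, but that scaling also moved the median of all genes from -0.02 to 0.65. Astrocyte markers had a median log2(FC) of 3.13 in the Control IP and -0.59 in the Syn IP, and their part in the Sall1 values was not tested.

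Surface and adhesion genes were all called lower in every IP. Selplg, which encodes the P-selectin ligand, was at 40.9, 41, 41.4 and 48.1 CPM in Control inputs and 0.756, 0.521, 0.785 and 0.704 CPM in Control IPs, with no overlap (log2(FC) -5.72, SE 0.103, adjusted p = 3.4e-12). Tmem119, a microglial membrane protein, was at -5.95, the integrins Itgam (CD11b) and Itgax at -5.22 and -5.32, the tetraspanin Cd53 at -4.96, and the leukocyte phosphatase Ptprc at -3.53.

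Among lysosomal genes, Ctss had the largest fall of all members in the Control IP. Its levels were 232, 181, 232 and 263 CPM in the inputs and 2.54, 1.82, 2.56 and 3.32 CPM in the IPs, a log2(FC) of -6.25 (SE 0.155, adjusted p = 2.3e-11). The Control pairs retained 1.1, 1.01, 1.1 and 1.26% of the input level. The retained share was 3.56, 3.99, 4.15 and 5.35% in the Syn pairs, 3.12, 4.13, 2.44 and 2% in the SAPAP3 WT pairs and 12, 2.15, 2.81 and 9.2% in the SAPAP3 KO pairs. All 4 cohorts were without overlap between input and IP, and SAPAP3 KO pairs 1 and 4 again kept the most. Laptm5, a lysosomal membrane protein of blood cells, and Cst7 were called lower in each IP, with -5.03 and -5.82 in Control.

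Cd68 and Cd74, the other genes of this role, fell less. Cd68, a lysosomal glycoprotein of macrophages, had 12.6, 12.6, 10.3 and 12.7 CPM in Syn inputs and 6.9, 8.8, 7.23 and 8.92 CPM in Syn IPs, a log2(FC) of -0.39 (SE 0.101, adjusted p = 0.0054) that did not reach the fold limit. In the Control cohort it was at 18, 17.4, 15.4 and 16.4 CPM in inputs and 3.03, 2.65, 1.8 and 2.97 CPM in IPs (log2(FC) -2.46, SE 0.136, adjusted p = 1.4e-08), and the SAPAP3 IPs were called lower too (-2.32 in WT and -2.11 in KO). Input and IP did not overlap in any of these cohorts.

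Cd74 stood at 64, 56.2, 109 and 88.8 CPM in Control inputs and 34.9, 25.1, 67.2 and 33.5 CPM in Control IPs, and the highest IP was above the lowest input. The log2(FC) was -0.76 (SE 0.286, adjusted p = 0.028), short of the fold limit, and became -1.12, a call, without Control IP replicate 3. The Syn IP was called lower (log2(FC) -2.06, SE 0.472, adjusted p = 0.0028), with 287, 166, 56.8 and 170 CPM in inputs and 51.2, 42.7, 14.3 and 34 CPM in IPs. In SAPAP3 WT, the inputs had 336, 231, 49.1 and 418 CPM and the IPs 92.4, 138, 38 and 249 CPM (log2(FC) -0.82, SE 0.641, adjusted p = 0.28), and in SAPAP3 KO 202, 360.5, 118 and 222 and 126, 209.6, 98.7 and 169.9 CPM (log2(FC) -0.37, SE 0.305, adjusted p = 0.29). Libraries within each SAPAP3 group differed widely, and input and IP overlapped. Each Cd74 IP was below its own input, at 27.5, 59.7, 77.3 and 59.6% in SAPAP3 WT and 62.7, 58.1, 84 and 76.6% in SAPAP3 KO, and with the replicate block the log2(FC) was -0.76 (adjusted p = 0.0077) and -0.32 (adjusted p = 0.0072), again short of the fold limit.

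**Figure D2:**
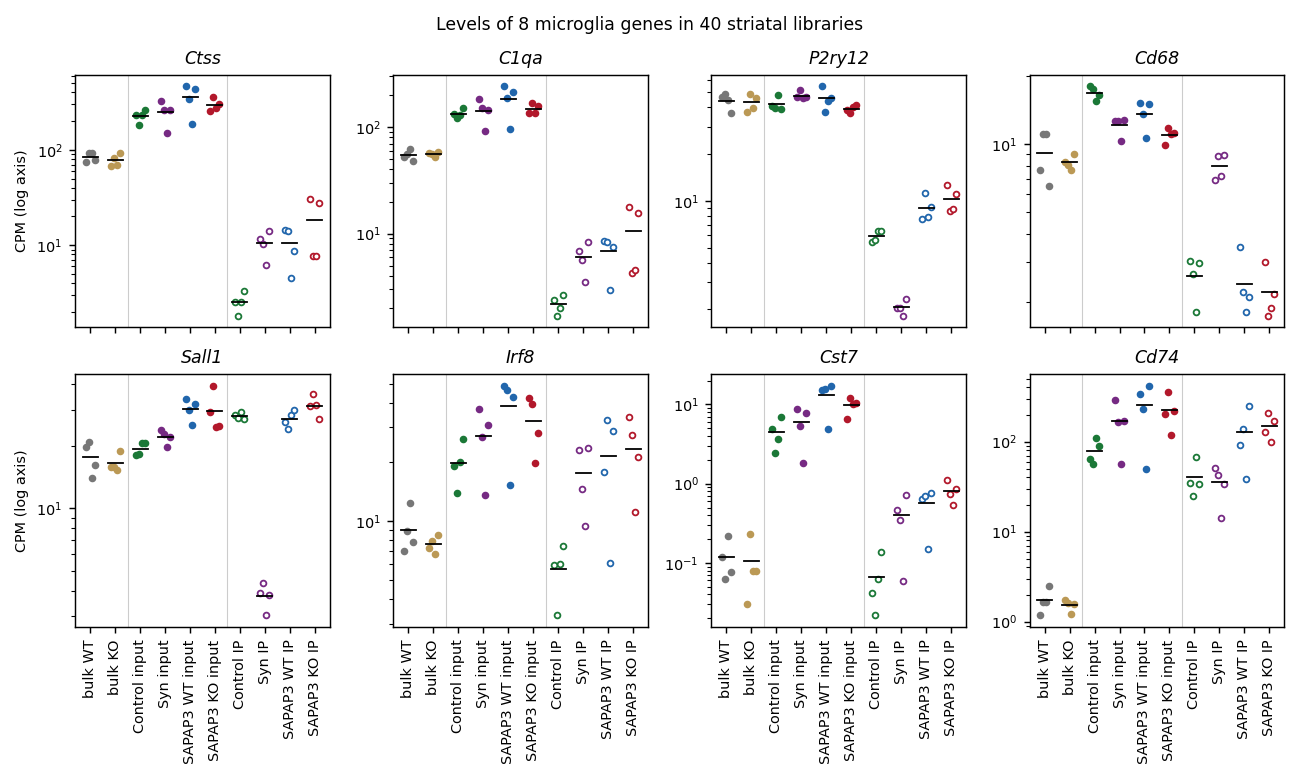
CPM of Ctss, C1qa, P2ry12, Cd68, Sall1, Irf8, Cst7 and Cd74 in all 40 libraries, with filled points for bulk and input, open points for IP and a black line for the mean of 4 libraries. Ctss and C1qa are low in every IP, Sall1 is low only in the Syn IP, and Cd74 and Cst7 are near the bottom in bulk and high in the inputs.

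Of the remaining members, Olfml3, a secreted matrix protein of microglia, was at 38.2, 38.5, 32.7 and 48.3 CPM in Control inputs and 2.75, 2.02, 2.62 and 5.18 CPM in Control IPs (log2(FC) -3.43, SE 0.225, adjusted p = 6.5e-08), with no overlap. Aif1, the actin-bundling protein IBA1, and Ly86, the partner MD-1 of the receptor RP105, were at -3.19 and -5.70. Ccl9, a chemokine, was the scarcest in the IPs, with 1, 1, 2 and 3 counts in the Control IPs, 5, 5, 3 and 1 in the Syn IPs, 5, 2, 6 and 0 in the SAPAP3 WT IPs and 11, 4, 6 and 3 in the SAPAP3 KO IPs. Control inputs held 3.06, 2.4, 2.83 and 3.6 CPM of it. The ratio of summed input to summed IP, each over its library totals, was 78.3 for Control, with an exact 95% interval of 37.6 to 196.4 that covers counting error only, 54.2 (32.0 to 99.9) for Syn, 33.8 (19.4 to 64.3) for SAPAP3 WT and 12.7 (8.34 to 20.3) for SAPAP3 KO. Cst7, Spi1 and Itgax were also scarce in the Control IP, with ratios of 68.0 (38.5 to 132.5), 65.0 (41.8 to 107.0) and 47.6 (30.1 to 79.6). Such members passed the filter on low counts through the inputs and so had to be lower in the IP.

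The depth of the fall was compared between cohorts with an interaction term, in which a positive value stands for a weaker fall than in Control. Against Control, 18 of 33 members were higher and 3 lower in Syn, where 5856 of 16371 genes were higher and 5613 lower. With both directions pooled, 21 of 33 members were called, against 70.1% of all genes, so that the pooled share of members lay below the background. Cd68 and Ctss had the largest positive called values, 2.07 (SE 0.177, adjusted p = 1.4e-08) and 1.89 (SE 0.356, adjusted p = 0.00015). Sall1, P2ry12 and Siglech went the other way, at -3.11, -1.73 and -0.47, so that less of their RNA remained in the Syn IP than in the Control IP. With the replicate number as a block, 23 members were higher (against 38.1% of all genes) and 5 lower (36.8%). With libraries scaled on ribosomal protein genes, which moved the median of all genes to -1.05, 3 were higher (3.18%) and 11 lower (80.9%). SAPAP3 WT against Control had 11 members higher and 1 lower (12 of 33 called, against 20.5% of all genes), and 25 higher with the replicate block (15.4%). Without the block, 1471 of 16032 genes were higher and 1809 lower. Fcrls and Tmem119 were the furthest above 0 there, at 1.81 and 1.69, and Sall1 was again below, at -0.72. Leaving out replicate 2 reduced the number of higher members from 11 to 2. Both comparisons share the Control libraries, and cohort differs in both, with promoter and sex in Syn and with strain and age at injection in SAPAP3 WT.

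Summed over the 33 members, IPs held 87.3 to 139.3 CPM in Control, 75.0 to 147.5 CPM in Syn, 124.4 to 392.1 CPM in SAPAP3 WT and 205.2 to 389.1 CPM in SAPAP3 KO. The inputs of the same cohorts held 1331.1 to 1710.6, 1111.7 to 2010.6, 1165.5 to 2694.0 and 1500.0 to 2109.0 CPM. No IP reached the lowest input. Cd74, Sall1, Irf8 and Cd68 made up 68.9% of the mean sum in the Control IPs, 52.7% in Syn, 68% in SAPAP3 WT and 62.5% in SAPAP3 KO IPs, against 8.95% to 16.9% in the inputs. The other members summed to 28.7 to 41.9, 41.1 to 73.2, 50.3 to 105.8 and 62.1 to 194.6 CPM in the IPs. Other genes of the same pathways were taken from lists that hold no member. Of all genes, 13.5%, 15.8%, 12.1% and 11.5% were called lower in the Control, Syn, SAPAP3 WT and SAPAP3 KO IPs. Those called higher made up 13.4%, 0.42%, 10.9% and 12.3%. Among 12 genes of TREM2-TYROBP and Fc receptor signalling, 11 were called lower in each IP, with medians of -3.24, -3.69, -3.23 and -2.62 in Control, Syn, SAPAP3 WT and SAPAP3 KO. Of 10 complement and integrin partners, 4 were lower in the Control IP, led by C3ar1, the C3a receptor, at -4.98 and the integrin chain Itgb2 at -4.97, and 4 were higher, with complement C4b at 2.56 and C1ra at 2.28. In the Syn IP, 5 of these were lower and 0 higher, and the medians over the 4 IPs were 0.90, -1.37, 0.47 and 0.51. Ligands and partners of CSF1R and TGF-beta were lower for 4 of 11 in the Control IP, with Tgfb1 at -2.43, and higher for 1, the ligand Csf1, at 1.48 (medians -0.53, -0.21, -0.69 and -0.42). Endothelial markers, included as another untargeted cell type, were called lower for 10, 8, 10 and 10 genes of 10 in the 4 IPs, with a median of -3.47 in Control.

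The second question was where the members stood in the input lysates relative to bulk striatum. In the Control inputs, 16 of 33 members were called higher than in bulk WT (log2(FC) above 1), against 6.05% of all genes. Syn inputs had 12 of 33 (4.45%), SAPAP3 WT inputs 20 of 33 (5.12%), and SAPAP3 KO inputs 19 of 33 against bulk KO (5.04%), and none was called lower, where 3.06%, 0.365%, 0.0441% and 0.113% of all genes were. Medians of the members were 0.92, 0.78, 1.26 and 1.14, beside all-gene medians between 0.00 and 0.02. Members whose libraries did not overlap between input and bulk numbered 28, 25, 27 and 29, and this was not counted over all genes. Of all genes, 56.2%, 40.6%, 27.2% and 36.3% had an unadjusted p under 0.05 in edgeR. Scaled on ribosomal protein genes, 3 members were called higher (against 1.22% of all genes) and 14 lower (91.6%) in Control inputs, with 30 of 33 below 0. That scaling moved the median of all genes to -1.81, and 29 of 33 members lay above that median, as they did without it.

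**Figure D3:**
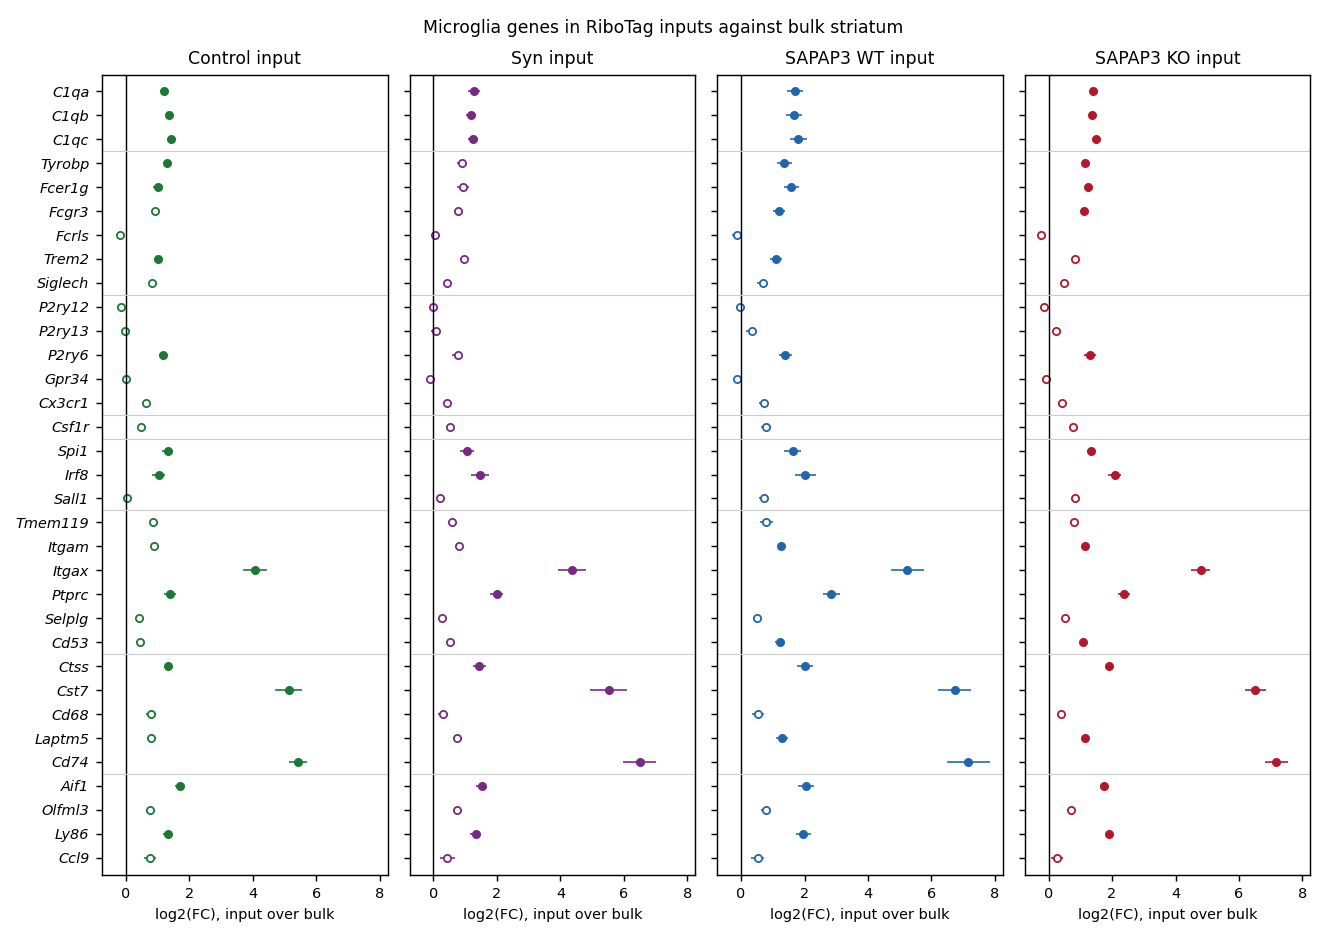
Fitted log2(FC) ± SE of each member in inputs against bulk of the same genotype, with 4 libraries a group, filled where the call was made and open where it was not. Cd74, Cst7 and Itgax stand furthest to the right in all 4 comparisons, and P2ry12, Gpr34 and Fcrls sit near 0.

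Cd74 rose most. It had 1.17, 1.65, 1.66 and 2.47 CPM in bulk WT and 1.74, 1.62, 1.23 and 1.57 CPM in bulk KO, so that every one of the 16 input libraries, with 49.1 CPM or more, was above every bulk library. The log2(FC) was 5.43 (SE 0.287, adjusted p = 8.2e-07) in Control, 6.50 (SE 0.518, adjusted p = 0.00043) in Syn, 7.16 (SE 0.681, adjusted p = 0.0006) in SAPAP3 WT and 7.18 (SE 0.353, adjusted p = 2.2e-07) in SAPAP3 KO inputs.

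Cst7 stood at 0.12, 0.0621, 0.219 and 0.0771 CPM in bulk WT, which is 9, 4, 12 and 5 counts. It reached 4.91, 2.47, 3.7 and 6.88 CPM in the Control inputs, 8.7, 5.38, 1.84 and 7.74 CPM in the Syn inputs, 15.1, 15.6, 4.86 and 17.2 CPM in the SAPAP3 WT inputs and 6.47, 11.9, 9.99 and 10.5 CPM in the SAPAP3 KO inputs. No input overlapped with bulk, and log2(FC) values were 5.13, 5.52, 6.73 and 6.51. With so few counts in bulk, Cst7 passed the filter through the inputs and had to be higher there, and its fold depends on those counts.

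Itgax was at 0.16, 0.435, 0.366 and 0.154 CPM in bulk WT, 5.15, 2.85, 4.77 and 6.96 CPM in Control inputs, 9.12, 6.61, 2.73 and 6.15 CPM in Syn inputs, 15, 11.8, 3.58 and 13.4 CPM in SAPAP3 WT inputs and 7.14, 13.4, 6.57 and 7.59 CPM in SAPAP3 KO inputs. These bulk WT levels are 12, 28, 20 and 10 counts, so that Itgax, like Cst7, passed the filter through the inputs and had to be higher there. All inputs were above all bulk libraries, with log2(FC) values of 4.06, 4.37, 5.24 and 4.79. Ptprc had 5.36, 5.88, 5.16 and 5.55 CPM in bulk WT, 15.1, 10.1, 14.4 and 21.5 CPM in Control inputs and 48.5, 46.6, 19.7 and 50.5 CPM in SAPAP3 WT inputs, again without overlap. Its log2(FC) was 1.38, 1.99, 2.85 and 2.38 in the 4 inputs.

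The C1q genes were called higher in all 4 inputs by smaller amounts. C1qa had 52.7, 56, 62.5 and 48 CPM in bulk WT, below every Control input, and log2(FC) values of 1.19, 1.27, 1.70 and 1.40 in the Control, Syn, SAPAP3 WT and SAPAP3 KO inputs. C1qc, at 107, 92, 99.1 and 124 CPM in Control inputs and 38.3, 39.2, 39.6 and 30.5 CPM in bulk WT, had 1.42, 1.25, 1.81 and 1.5. Ctss was at 74, 93.3, 92.2 and 78 CPM in bulk WT and at 149.3 CPM or more in every input, with 1.33, 1.45, 2.02 and 1.91. Aif1 stood at 3.62, 3.94, 4.19 and 3.55 CPM in bulk WT and 11.8, 10.5, 13.8 and 17.2 CPM in Control inputs, a log2(FC) of 1.70 (SE 0.149, adjusted p = 3.2e-05). Neither gene overlapped between input and bulk.

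Ly86 had 1.32, 1.33, 1.96 and 1.91, and in SAPAP3 KO inputs it was at 40, 43.3, 33.3 and 41.9 CPM against 9.65, 11, 9.5 and 11.6 CPM in bulk KO. Of the transcription factors, Irf8 was at 7.06, 8.92, 12.3 and 7.79 CPM in bulk WT and had 1.04, 1.46, 2.03 and 2.08, and Spi1 1.32, 1.05, 1.63 and 1.33. These completed the 12 members called in all 4. Several values lay at the fold limit and lost the call when 1 library was left out. In Control these were Trem2 (1.01, and 0.93 to 0.98 without Control input replicate 3 or 4 or bulk WT replicate 4), Fcer1g (1.01, and as low as 0.89 in 6 such fits) and Irf8 (1.04, and 0.87 to 0.98 in 3 such fits). In Syn, Spi1 was at 0.92 to 0.98 without bulk WT replicate 4 or Syn input replicate 1 or 4.

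The 13 members called in none of the inputs were the homeostatic receptors and surface genes P2ry12, P2ry13, Gpr34, Cx3cr1, Csf1r, Tmem119, Selplg, Fcrls and Siglech together with Sall1, Cd68, Olfml3 and Ccl9. P2ry12 stood at 46.9, 48.9, 44.5 and 36.7 CPM in bulk WT, overlapping with its inputs, with log2(FC) values of -0.17 (SE 0.101, adjusted p = 0.18), -0.01 (SE 0.0869, adjusted p = 0.95), -0.02 (SE 0.118, adjusted p = 0.95) and -0.15 (SE 0.0776, adjusted p = 0.2). Gpr34 lay at -0.01, -0.11, -0.13 and -0.08, and Fcrls at -0.18, 0.05, -0.14 and -0.25. Csf1r was at 114, 115, 105 and 97.2 CPM in bulk WT and 167, 147, 163 and 172 CPM in Control inputs, which did not overlap, but its log2(FC) of 0.49 (SE 0.0717, adjusted p = 0.00052) was below the fold limit. Tmem119 had 40.7 to 53.7 CPM in Control inputs and 21.7 to 26.1 CPM in bulk WT (log2(FC) 0.85). Cx3cr1 had 101.7 to 108.8 CPM in Control inputs and 52.4 to 73.4 CPM in bulk WT (log2(FC) 0.62). Both were higher without overlap and also short of the fold limit. Sall1, at 19.9, 21, 14.1 and 16.2 CPM in bulk WT, had 0.03, 0.20, 0.71 and 0.83.

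Markers of monocytes, granulocytes and lymphocytes moved in the same comparisons. There, 6.05%, 4.45%, 5.12% and 5.04% of all genes were called higher in the Control, Syn, SAPAP3 WT and SAPAP3 KO inputs. The 12 listed markers summed to 4.41 to 7.12 CPM in bulk WT and 5.72 to 7.07 CPM in bulk KO, and to 21.3 to 45.2 CPM in Control, 22.2 to 58.1 CPM in Syn, 30.4 to 94.2 CPM in SAPAP3 WT and 49.7 to 72.5 CPM in SAPAP3 KO inputs. All markers tested were called higher in inputs, 5 of 5 in Control, 8 of 8 in Syn, 9 of 9 in SAPAP3 WT and 9 of 9 in SAPAP3 KO, with medians of 5.65, 5.17, 6.47 and 5.89. Most of them had so few counts in bulk that they passed the filter through the inputs. The monocyte gene Ly6c2 stood at 4.67, 2.25, 2.97 and 10 CPM in Control inputs and at 0.0366 CPM or less in each bulk WT library. Of 8 markers of border macrophages tested, 1 was called higher in each input, Ms4a7, with 1.22, 1.87, 2.72 and 2.63, and the medians were 0.14, 0.29, -0.06 and 0.23. The part of these cells in the levels of Cd74, Ptprc, Itgax, Cst7 and Irf8, some of which they also express, was not tested.

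**Figure D4:**
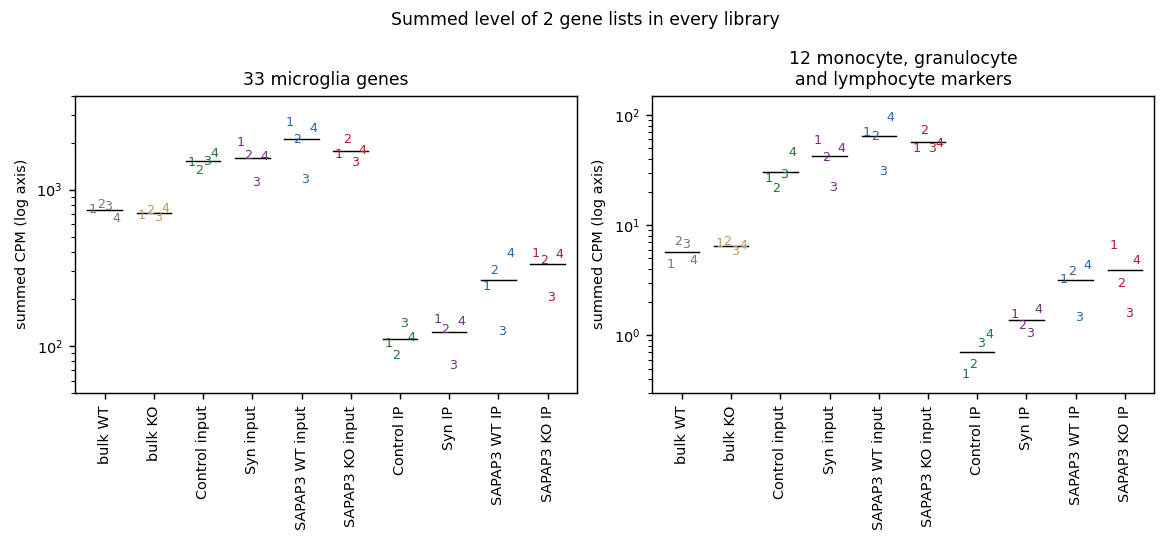
Summed CPM of the 33 members and of 12 markers of monocytes, granulocytes and lymphocytes in each library of the 10 groups, with the replicate number as the symbol and a line for the mean of 4 libraries. Both sums are higher in inputs than in bulk, and replicate 3 is the lowest input of the Syn and SAPAP3 WT groups for the members.

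Genes outside the member list that belong to the same pathways rose in part. Of all genes, 6.05%, 4.45%, 5.12% and 5.04% were called higher in the Control, Syn, SAPAP3 WT and SAPAP3 KO inputs. Of 12 genes of TREM2-TYROBP and Fc receptor signalling, 6, 9, 11 and 10 were called higher in Control, Syn, SAPAP3 WT and SAPAP3 KO inputs, led by the IgG receptor Fcgr4 with 3.94, 4.17, 5.18 and 5.07. Complement and integrin partners were higher for 6, 5, 7 and 6 of 10, with complement C3 at 3.54, 4.32, 5.41 and 5.16. Of the genes known from activated microglia, 6 of 15, 5 of 14, 6 of 15 and 6 of 15 were higher, among them the glucan receptor Clec7a with 2.91, 2.51, 4.14 and 3.74. Of 18 other homeostatic microglia genes, 2, 3, 7 and 7 were called higher, with medians of 0.39, 0.44, 0.80 and 0.71. In Control inputs 1 of them, Mef2c, was called lower, at -1.34, where 3.06% of all genes were. A smaller number, 0, 0, 3 and 2, of the CSF1R and TGF-beta partners were called higher. The list medians were 1.07, 1.13, 1.68 and 1.51 for TREM2-TYROBP and Fc receptor signalling, 1.26, 0.97, 2.07 and 1.79 for complement and integrin partners, 0.75, 0.30, 0.61 and 0.57 for the activated genes and -0.10, 0.14, 0.30 and 0.36 for the CSF1R and TGF-beta partners.

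Within the inputs, 1 library of some groups stood apart across many members. Replicate 3 was the lowest of the SAPAP3 WT inputs for 29 of 33 members, with a summed level of 1165.5 CPM where the others held 2097.8 to 2694.0 CPM, and replicate 3 was the lowest of the Syn inputs for 32 of 33. Replicate 1 was the highest of the SAPAP3 KO IPs for 28 of 33 members. In SAPAP3 WT inputs, Cd74 was at 49.1 CPM in replicate 3 and at 230.6 CPM or more in the other replicates, and Itgax at 3.58 CPM against 11.8 CPM or more. Without replicate 3, the SAPAP3 WT inputs had 20 members called higher than in bulk, as with it, and the Syn inputs had 15 instead of 12.

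The third question was whether loss of SAPAP3 changed the members. In inputs, 0 of 33 members were called between KO and WT by edgeR (adjusted p under 0.05), against 0.00641% of all genes, and 2 had an unadjusted p under 0.05. In the IPs, 0 of 32 were called (0.0263% of all genes) with 3 at an unadjusted p under 0.05, and in bulk 0 of 32 (0% of all genes), also with 3. The test in bulk thus did not call Dlgap3, the targeted gene, either, so the lack of calls there says little. Neither limma-voom nor DESeq2 called a member. The lowest adjusted p of any member was 0.73, 1.0 and 0.98. Median log2(FC) values were -0.24 in inputs, 0.53 in the IPs and -0.06 in bulk, with 33 of 33 below 0, 30 of 32 above 0 and 26 of 32 below 0. The medians of all genes lay between 0.00 and 0.01. Markers of some other cell types lay below 0 in the inputs too. The median was -0.32 for endothelial markers (9 of 10 below 0, 5 with an unadjusted p under 0.05) and -0.25 for neuron markers (7 of 10 below 0). It was -0.09 for oligodendrocyte markers (7 of 10 below 0) and -0.06 for monocyte, granulocyte and lymphocyte markers (7 of 9). Astrocyte markers had 0.06 (4 of 10 below 0) and border macrophage markers 0.05 (2 of 6). The part of these cell types in the members' values was not tested. Ccl9 had too few counts to be tested in the IPs, and Cst7 in bulk.

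**Figure D5:**
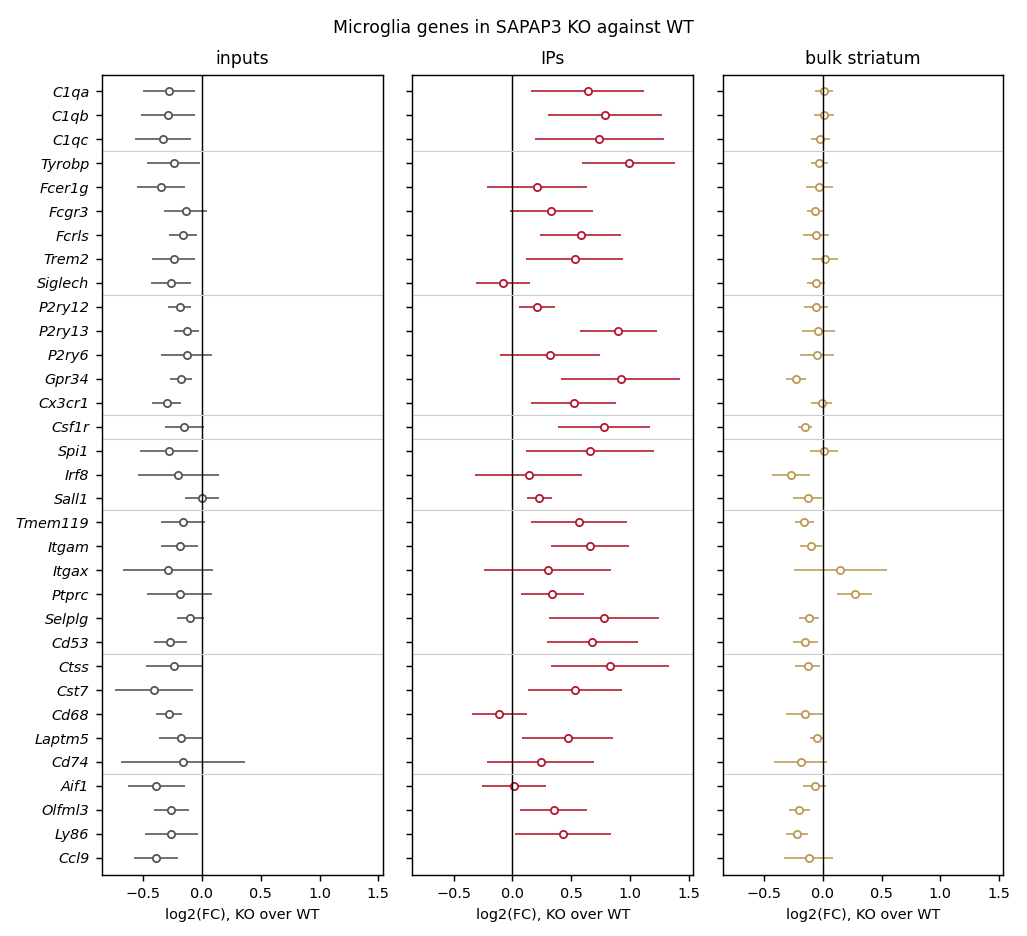
Fitted log2(FC) ± SE of each member in SAPAP3 KO against WT for inputs, IPs and bulk, with 4 libraries a group and all points open because no member was called. Values lie below 0 in inputs, mostly above 0 in the IPs and around 0 in bulk, with the widest errors in the IPs.

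The values behind these medians overlapped widely. Ctss was at 467, 340.3, 185 and 439 CPM in SAPAP3 WT inputs and 256, 355.5, 274 and 302 CPM in SAPAP3 KO inputs, and WT replicate 3 lay below every KO library while the others lay near or above the highest (log2(FC) -0.24, SE 0.236, adjusted p = 0.8). In the IPs, Ctss was at 14.6, 14.1, 4.51 and 8.78 CPM in WT and 30.8, 7.65, 7.7 and 27.8 CPM in KO, where KO replicates 1 and 4 were above all WT libraries and KO replicates 2 and 3 among them (log2(FC) 0.83, SE 0.499, adjusted p = 1). In bulk, Ctss was at 68.4, 81.7, 69.6 and 93.3 CPM in KO, which overlapped with the WT levels given above (log2(FC) -0.13, SE 0.106, adjusted p = 0.98). Ccl9 in the inputs was the only member without overlap between genotypes, and overlap was not counted over all genes. Sall1, Cd74 and Irf8 had log2(FC) values of 0.00, -0.16 and -0.20 in inputs, 0.23, 0.24 and 0.14 in the IPs and -0.13, -0.19 and -0.27 in bulk.

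The median in the inputs moved from -0.11 without WT input replicate 1 to -0.40 without WT input replicate 3, and the median in the IPs from 0.24 without KO IP replicate 1 and 0.29 without WT IP replicate 3 to 0.70. With Xist as a covariate the medians were -0.27, 0.35 and -0.06. Scaled on ribosomal protein genes, 4 members were called higher in the KO IP (against 0.184% of all genes), namely Ctss (0.96), Csf1r (0.88), C1qb (0.92) and C1qc (0.87). For the fall from input to IP, the interaction test of edgeR called 0 members between KO and WT (0% of all genes), with 6 at an unadjusted p under 0.05. limma-voom and DESeq2 called 0 members as well. The estimates pointed to a weaker fall in KO, with a median of 0.75 over the members, beside 0.01 over all genes. They were above 0 for 33 of 33, and this was not counted over all genes. Members moved together by library, with replicate 1 the highest of the SAPAP3 KO IPs for 28 of 33, so they are not separate evidence. Without replicate 1 that median was 0.45. Markers of some other cell types outside the tag also lay above 0 in this comparison. The median was 0.39 for endothelial markers (10 of 10 above 0) and 0.39 for monocyte, granulocyte and lymphocyte markers (8 of 9 above 0). Neuron markers had -0.02 (5 of 10 above 0), oligodendrocyte markers 0.03 (6 of 10) and border macrophage markers 0.18 (3 of 6). Astrocyte markers had 0.12 (10 of 10 above 0). Summed endothelial markers were at 32.8, 18.1, 18.5 and 25.6 CPM in the SAPAP3 KO IPs, highest in replicates 1 and 4, and at 22.4, 29, 19.2 and 19.6 CPM in the SAPAP3 WT IPs. The part of these values in the members' shift was not tested. No gene of the other lists was called between genotypes in inputs, IPs or bulk.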

How the data were processed

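The deposited table gave raw counts per gene (24060 rows) that the authors made from ribosomal RNA-depleted, stranded libraries of 40 samples, and the submitters' processing notes name STAR, HTSeq and build mm10. Versions and the strand setting are not given in the sources used here. Each group held 4 libraries, and 0 sample columns were left unused. No pair of columns was identical, and replicates of a group correlated at 0.98 or more (log2 CPM) while differing beyond sampling noise.

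Each comparison was fitted on its own groups with edgeR 4.0.16 in R 4.3.3 (filterByExpr with a minimum count of 10 and a minimum total of 15, TMM, quasi-likelihood test), with Benjamini-Hochberg adjustment over all genes tested and SE taken as the size of log2(FC) over the root of F. Calls needed an adjusted p under 0.05 and, for IP over input and input over bulk, a log2(FC) above 1 or below -1. Differences between cohorts were interaction terms. limma 3.58.1 (voom) and DESeq2 1.42.0 were alternatives. The edgeR, limma-voom and DESeq2 fits of some comparisons were also run on simulated counts, with 200 genes changed by known amounts. The other settings were not run on simulated counts. CPM used total counts, and FPKM the merged RefSeq exon length, found for 99.2% of rows. Intervals and ratios of low counts cover counting error only.

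All 33 members are named. Library values are given for the 3 members with the largest and the 3 with the smallest change in the Control IP, those not called lower in some IP, the most abundant member of each role, and up to 6 members with the largest change per comparison of inputs with bulk. The members, the roles and the further gene lists were chosen with earlier results of these data known. Deviations from the group mean were correlated between an input and the IP of equal number in all 4 cohorts (lowest correlation 0.261 in Control, 0.486 in Syn, 0.515 in SAPAP3 WT and 0.439 in SAPAP3 KO). The animal numbers in the labels pair Control and SAPAP3 libraries, and Syn libraries share only the number in their titles. Where nothing says that samples are separate, p-values measure the spread between these libraries. Levels across genes were compared only per length.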

Additional observations from a re-analysis of the deposited data

Results flagged for a closer look

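Each of the 33 members, and their sum, was examined in each of the 10 groups of 4 libraries, which gives 340 sets. In 22 of them, all of single members, 1 library lay apart from the other 3 by more than Dixon's 95% critical value, which chance alone passes in about 1 of 20 groups. Among the Control input libraries, these were P2ry12 in replicate 3 (48.0 CPM, above the others), Selplg in replicate 4 (48.1 CPM, above the others) and Spi1 in replicate 4 (9.84 CPM, above the others). The Control IP libraries held P2ry13 in replicate 2 (0.521 CPM, above the others), C1qb in replicate 2 (1.24 CPM, below the others), Itgam in replicate 4 (1.63 CPM, above the others) and Ly86 in replicate 4 (0.59 CPM, above the others). For SAPAP3 WT input, they were Fcer1g in replicate 3 (12.1 CPM, below the others), Ptprc in replicate 3 (19.7 CPM, below the others) and Cst7 in replicate 3 (4.86 CPM, below the others). Among the SAPAP3 KO input libraries, these were P2ry6 in replicate 2 (4.84 CPM, above the others), Cx3cr1 in replicate 2 (95.2 CPM, above the others), Itgax in replicate 2 (13.4 CPM, above the others) and Ccl9 in replicate 2 (1.34 CPM, below the others). The bulk WT libraries held C1qc in replicate 4 (30.5 CPM, below the others). For bulk KO, they were P2ry13 in replicate 2 (17.3 CPM, above the others), Sall1 in replicate 4 (18.9 CPM, above the others) and Spi1 in replicate 3 (3.01 CPM, above the others). Among the Syn input libraries, these were P2ry12 in replicate 2 (51.4 CPM, above the others), Cd68 in replicate 3 (10.3 CPM, below the others) and Cd53 in replicate 3 (10.2 CPM, below the others). The Syn IP libraries held Tmem119 in replicate 4 (1.77 CPM, above the others). 

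The fall from input to IP differed between cohorts for some members by edgeR's interaction test. In Syn 21 of 33 were called in either direction, against 70.1% of all genes, so that the pooled share of members lay below the background. By direction, 18 members were higher and 3 lower, where 5856 of 16371 genes were higher and 5613 lower. In SAPAP3 WT 12 of 33 were called, against 20.5% of all genes. There, 11 members were higher and 1 lower, where 1471 of 16032 genes were higher and 1809 lower. Values are differences of log2(FC) from Control, positive where the fall was weaker than in Control. For Syn these were Ctss (1.89), Tyrobp (1.04), Tmem119 (1.36), Csf1r (0.64), Aif1 (0.88), P2ry12 (-1.73), P2ry13 (0.47), C1qa (1.36), C1qb (1.21), C1qc (1.29), Cx3cr1 (1.00), Trem2 (1.77), Itgam (1.17), Fcgr3 (1.09), Fcrls (1.41), Siglech (-0.47), Selplg (0.74), Ly86 (1.08), Cd68 (2.07), Sall1 (-3.11) and Irf8 (1.16). For SAPAP3 WT they were Ctss (1.35), Tmem119 (1.69), Csf1r (0.86), P2ry13 (0.85), C1qb (1.24), Cx3cr1 (1.10), Itgam (1.07), Fcgr3 (1.37), Fcrls (1.81), Selplg (1.17), Ly86 (1.47) and Sall1 (-0.72). Both sets were measured against the same Control libraries, and Sall1 was below 0 in both.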

How the results depend on the processing

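Results were recomputed with limma-voom, DESeq2, total count scaling, ribosomal protein scaling, no filter, an FPKM filter (above 5 in at least 4 libraries), the replicate number as a block, Xist as a covariate in the KO comparisons, and without each library in turn. For the interaction terms, all libraries of 1 replicate number were left out together instead. Leaving out both bulk libraries with a shared animal number was added after the data were seen and left 0 members called between KO and WT in bulk (median -0.07). In the 4 IPs, the number of members called lower stayed within 1.5 times of the reported number under every alternative run, and without 1 library it ranged from 31 to 32 in Control and stayed at 31, 30 and 30 in Syn, SAPAP3 WT and SAPAP3 KO. Members called higher in inputs over bulk ranged without 1 library from 13 to 16 in Control, 11 to 15 in Syn and 19 to 20 in SAPAP3 WT, and stayed at 19 in SAPAP3 KO. In Control inputs the number fell to 10 with the FPKM filter, which tests fewer genes, and to 3 with ribosomal protein scaling.

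Ribosomal protein scaling moved the median of all genes to -1.81 in Control inputs over bulk, and 26 of the 29 values above 0 turned. Those called under either scaling became Ctss -0.50, Tyrobp -0.55, Csf1r -1.34, Aif1 -0.13, P2ry6 -0.65, C1qa -0.64, C1qb -0.47, C1qc -0.41, Cx3cr1 -1.20, Trem2 -0.81, Fcer1g -0.82, Siglech -1, Olfml3 -1.05, Selplg -1.42, Laptm5 -1.05, Ly86 -0.51, Cd68 -1.01, Cd53 -1.38, Sall1 -1.80, Spi1 -0.51, Irf8 -0.79, Ptprc -0.46 and Ccl9 -1.06. Tmem119, Itgam and Fcgr3, called under neither, became -0.98, -0.93 and -0.91. Relative to that median, 29 members lay above and 4 below. The same scaling moved the median of all genes to -1.05 for Syn against Control, where 12 values turned and those called under either scaling became Tyrobp -0.02, Csf1r -0.42, Aif1 -0.18, P2ry13 -0.60, Cx3cr1 -0.06, Gpr34 -0.66, Selplg -0.32, Laptm5 -0.65 and Cd53 -0.69, with 3 members higher and 11 lower. It also called 4 members between KO and WT in the IPs. With limma-voom, 11 members were higher in Syn against Control and 2 in SAPAP3 WT against Control, and the cause was not tested. The replicate block gave 5 lower in Syn and 25 higher in SAPAP3 WT and moved no other number of calls by over 1.5 times. Without 1 replicate, 13 to 18 members were higher and 2 to 3 lower in Syn against Control, and 2 (without replicate 2) to 16 (without replicate 3) were higher in SAPAP3 WT against Control, with 1 lower throughout. All KO and WT comparisons stayed at 0 without any 1 library, and their interaction stayed at 0 without any 1 replicate number. Members with under 10 counts per IP library, such as Ccl9, Cst7, Spi1 and Itgax in Control, are limited by depth.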

Other observations

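In the Control IP, where 13.5% of all genes were called lower and 13.4% higher, 6 of 15 genes known from activated microglia were called lower, with the glucan receptor Clec7a at -5.27 and the chemokine Ccl6 at -4.83, and 6 were higher, with the lipid carrier Apoe at 2.60 (SE 0.0492, adjusted p = 4e-12 in edgeR) and the tetraspanin Cd63 at 2.15. In the Syn IP, 5 of 14 were lower (against 15.8% of all genes) and 0 higher (0.42%). Of 18 other homeostatic genes, 8 were lower in the Control IP, with Tlr7 at -3.81, and 3 higher, with the phagocytic receptor Mertk at 1.83 and the matrix protein Sparc at 1.63. In the Syn IP, 12 of these were lower. Oligodendrocyte markers had a median log2(FC) of 0.02 in the Control IP, -1.57 in the Syn IP, 0.85 in the SAPAP3 WT IP and 0.93 in the SAPAP3 KO IP. Neuron markers had a median of -0.83 in the Control IP and 0.80 in the Syn IP. Astrocyte markers had a median of 3.13, 2.24 and 2.39 in the Control, SAPAP3 WT and SAPAP3 KO IPs and -0.59 in the Syn IP, where 1 of 10 (Glul, at -1.11) was called lower.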
